A study of Mus musculus with 2 samples.

Results

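Nuclear genes of oxidative phosphorylation were taken from the gene tables by symbol: every row whose symbol starts with Nduf, Uqcr or Atp5, or with Cox and a digit, apart from Cox7a1 and Cox8b. The rule took 91 of 21113 genes. Of these, 75 encode structural subunits of complexes I, III, IV or V, 11 encode assembly factors and 5 share a symbol stem without being structural subunits. The minimum used here, a deposited value of 1 or more in the wild-type or the ILN/ILN table, was reached by 89 of the 91.

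The tables hold strand-marked polyadenylated RNA of the mammary gland from C57BL/6 mice, taken at postnatal week 6, as 2 libraries. The wild-type library is the control. The Mir212/132 ILN/ILN library comes from mice homozygous for a cassette with an internal ribosome entry site, LacZ and Neo (ILN), placed in the locus that encodes miR-212 and miR-132. Apart from this allele both groups share strain, age, tissue and protocol as labelled, and the labels do not say whether a library holds 1 gland, 1 animal or a pool. Since neither Mir212 nor Mir132 was analysed here, no value of the targeted microRNAs checks the genotype labels. Each genotype has 1 library, so no difference below has a replicate check, a test or a p-value, and the spread between animals is unknown.

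Oxidative phosphorylation is the last stage of respiration in the inner mitochondrial membrane. Complex I takes electrons from NADH, complex III passes them from ubiquinol to cytochrome c, complex IV hands them to oxygen, and complex V, the ATP synthase, uses the proton gradient that the others build. The catalytic subunits that mitochondrial DNA encodes are not among these genes, so the values below cover the nuclear side alone. White fat, which fills much of the young mammary gland, holds fewer mitochondria than brown fat.

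The targeted microRNAs are shown first because a direct target would carry a match to their seed. Capitals mark bases 2 to 8, the seed, which both microRNAs share. RefSeq (GRCm38.p6) places them at chr11:75173723-75173744 and chr11:75173443-75173464 on the plus strand.
mmu-miR-132-3p: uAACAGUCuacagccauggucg
mmu-miR-212-3p: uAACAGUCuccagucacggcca
The matching site, GACTGTT, was searched in the longest 3′ untranslated region annotated for a RefSeq-listed transcript of each gene. It was present in 3 of 91 members (3.3%), against 1374 of 11293 measured genes (12.2%). The members' regions were short, with a median of 188 bases against 1035. Per 1000 bases of region the members held 0.0661 sites and all measured genes 0.091. The 3 sites are shown in 30-base windows of GRCm38 in the direction of the gene, with the site in capitals.
Cox10: gtaggtcttcgGACTGTTgcgtactcccca
Ndufa12: ccgcagtgaaGACTGTTcctgcacttccag
Ndufab1: aaaggcagcatGACTGTTggaaatcaaaga
The Cox10 site (chromosome 11) spans bases 1044 to 1050 of a region of 1495 bases, the Ndufa12 site (chromosome 10) bases 11 to 17 of 582, and the Ndufab1 site (chromosome 7) bases 1018 to 1024 of 2944. Cox10, which makes the haem precursor of the oxidase, was at 6.533 in wild type and 7.999 in ILN/ILN. Ndufa12, an accessory subunit of complex I, was at 450.1 and 512.7. Ndufab1, the mitochondrial acyl carrier protein that also sits in complex I, was at 102.3 and 71.85. The first 2 of these genes were thus higher in the library from the targeted allele and the third was lower. The deposited gene length of Ndufab1, 726 bases, is shorter than the 3479-base transcript that carries its site. That of Ndufa12, 487 bases, is shorter than its untranslated region of 582 bases. Measured genes with a site in an annotated region had a median log2 ratio of 0.05. The median was 0.02 for all measured genes and 0.04 for those with a deposited length of 2000 bases or more. A letter match is a description and no evidence of binding.

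Start sites were examined for letters of motifs known from nuclear genes of respiration. RefSeq windows from 250 bases before to 50 bases after the start were matched for 74 of 91 members, giving 81 windows. The core of the NRF1 motif, CGCATGCG, which reads the same on both strands, was in 10 windows (12.3%), against 3.67% of 11867 windows of measured genes and 1.87% of all 32851 windows. The ETS core bound by GABP, CCGGAAG on either strand, was in 19 windows (23.5%; 17.2% of measured genes' windows and 8.86% of all). The YY1 core, ATGGCGG on either strand, was in 14 windows (17.3%; 7.91% and 4.05%), and the oestrogen-related receptor core, CAAGGTCA on either strand, in 3 (3.7%; 1.04% and 1.56%). No core contains the letters of another, and ATGGCGG can fall on a start codon. By class, the NRF1 core was held by 4 of 14 complex V genes with a window, 2 of 32 of complex I, 2 of 5 of complex III and 1 of 11 of complex IV, while the YY1 core was held by 8 of 32 complex I genes and by none of complexes III and IV. Windows of 30 bases around the NRF1 core, in capitals, are shown for 4 genes that recur below.
Atp5l: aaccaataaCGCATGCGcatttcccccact
Atp5g2: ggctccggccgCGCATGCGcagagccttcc
Cox6a1: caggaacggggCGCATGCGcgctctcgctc
Uqcr11: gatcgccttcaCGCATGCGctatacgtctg
These lie on the minus strand at chr9:44920963-44920992, chr15:102671070-102671099, chr5:115349101-115349130 and chr10:80406808-80406837 of GRCm38.p6, with the core starting at positions -241, -41, -161 and -5 from the start. Holders of a core did not share a direction between the libraries. Of the 10 measured genes with the NRF1 core 5 had a log2 ratio above 0 and 5 below. Of the 18 with the ETS core 12 were above and 6 below, and of the 12 with the YY1 core 6 were above and 6 below.

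Levels of the 89 measured members differed little between the libraries. Values are those of the authors, divided by deposited gene length and library size, so that levels of genes can be compared. Each log2 ratio is the log2 of (value + 1) in ILN/ILN over (value + 1) in wild type. The members' median log2 ratio was 0.00, from -0.65 (Cox6b2) to 0.65 (Ndufa4l2), and the quartiles were -0.14 and 0.12. All 11556 measured genes had a median of 0.02 and quartiles of -0.16 and 0.16. A ratio above 0 was found for 45 members and a ratio below 0 for 44, where 52.3% of all measured genes lay above 0. A threshold of 25% was used to count differences, met where (value + 1) of either library exceeded that of the other by at least 25%. Past it, 2 members were higher in ILN/ILN (Atp5l and Ndufa4l2), as were 8.52% of measured genes. In the other direction 5 members passed (Cox6b2, Ndufab1, Cox6c, Cox6a2 and Ndufv3), and 13.3% of measured genes did. Both counts are smaller shares than the background. At 1.1-fold 21 members were higher and 24 lower, where 28.6% and 27.5% of measured genes were. At 1.5-fold 1 was higher and 1 lower, where 1.9% and 5.39% of measured genes were, and at 2-fold none was, where 0.407% and 1.72% were. In bulk tissue, fewer cells of a type and less RNA per cell cannot be told apart.

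The summed value of the members was 36278 in wild type and 35865 in ILN/ILN. As a share of all fragments assigned to genes, the 91 members took 2.36% of the wild-type library (95% Wilson interval 2.36 to 2.37) and 2.43% of the ILN/ILN library (2.43 to 2.44). Without Atp5b, the member with the most fragments, the shares were 2.11% and 2.12%. The ratio of the members' sums was 0.989, while all measured genes summed to 691867 and 645311, a ratio of 0.933. Relative to all measured genes both of these summed measures were thus higher in ILN/ILN. By median log2 ratio the members, at 0.00, were not higher than all measured genes, at 0.02. Sums are weighted towards abundant genes, so the ratio of 0.933 does not describe a typical gene. Sums of single complexes below stand beside this ratio with the same limit. The Wilson intervals and all intervals below cover counting error alone. The order of the members by level was nearly the same in both libraries (Spearman's rho 0.994 across 89 genes, which are not independent replicates).

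The libraries themselves differed in cell markers. Their depth was 46133338 and 42953129 fragments. Luminal epithelium markers were lower in ILN/ILN, past 25%, in 8 of 8 genes, with a summed value of 44.28 in wild type and 0.934 in ILN/ILN, where Krt8 and Cldn7 were at 0. Thus the ILN/ILN library labelled mammary gland nearly lacks these luminal markers. Markers of other mammary epithelial cells were not examined. B cell markers (6 of 6 lower, 182.4 against 34.19), T cell markers (6 of 6 lower, 53.66 against 18.17) and red cell markers (4 of 4 measured lower, 14460 against 6701) differed in the same direction. White adipocyte markers, 7 of 7 measured, summed to 81010 and 71880 with a median log2 ratio of 0.10. Of these 7, 5 were above 0 and 2 below, with 1 higher and 1 lower past 25%. Cfd, at 33950 and 25470, lowered that sum most. Brown adipocyte markers, 6 of 8 measured and none at 0, summed to 2111 and 2057 with a median of 0.01. Of these 6, 4 were above 0 and 2 below, from Ucp1 at 59.7 and 25.98 to Ppargc1a at 0.509 and 2.122. The part of these cell types in the members' values was not tested.

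**Figure D1:**
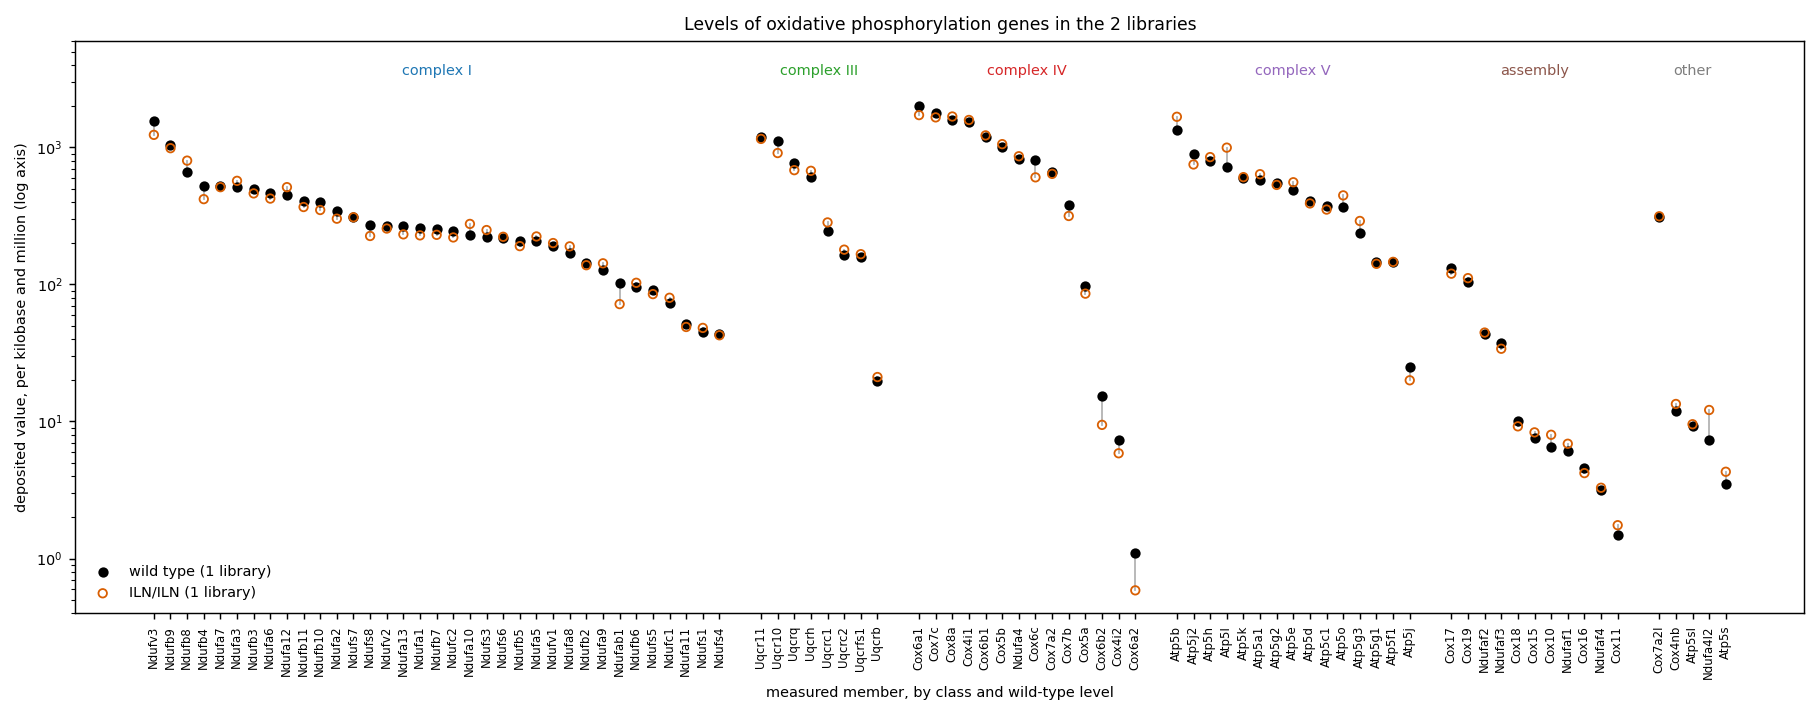
Deposited value of each measured member, apart from 1 of complex I that is not reported here, in the wild-type (filled) and ILN/ILN (open) library, 1 library each, on a log axis, by class and falling wild-type level. Most pairs of points overlap, complex IV subunits reach the highest value (2000 for Cox6a1 in wild type), and assembly factors lie at or below 132.5.

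Levels spread over a wide range within each complex. In wild type, complex I subunits ran from 43.48 (Ndufs4) to 1551 (Ndufv3), complex III from 19.64 (Uqcrb) to 1183 (Uqcr11), complex V from 24.96 (Atp5j) to 1348 (Atp5b) and the ubiquitous subunits of complex IV from 97.78 (Cox5a) to 2000 (Cox6a1). Subunits that are present together in 1 complex therefore differed by more than an order of magnitude in deposited value. Sequence shared with another annotated gene was found at low and at high levels. Of the 36-base words of the longest RefSeq-listed transcript, 54% of Uqcrb, 42.6% of Cox5a and 45.7% of Ndufs5 occur in another annotated gene, and the deposited length of Ndufs5, 144 bases, is the shortest of all members. At the other end, 54.3% of the words of Cox7c, at 1790 in wild type, and 58% of those of Atp5h, at 796.3, recur too, while Ndufs4 shares none. The count does not set apart other genes annotated at the same locus. Pseudogenes alone hold 51% of the words of Uqcrb, 12.3% of those of Cox5a and 45.7% of those of Ndufs5. No source used here says how reads with several matches or in overlapping genes were treated, so the levels of such genes are uncertain.

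Complex I had 36 measured members, 14 with a ratio above 0 and 22 below, and a median log2 ratio of -0.06 (range -0.50 to 0.29). Past 25%, none was higher and 2 were lower, against 8.52% and 13.3% of all measured genes. Of measured genes 52.3% lay above 0, and these shares are the background for each class below. The 7 genes of the catalytic core include those for subunits that carry the flavin and iron-sulfur clusters or bind ubiquinone. Of the 7 core genes 4 were above and 3 below 0, with a median of 0.08. Their summed value was 1588 in wild type and 1599 in ILN/ILN. The 29 other subunits were 10 above and 19 below, with a median of -0.09 and sums of 10152 and 9663. These groups differ in length, with a median deposited length of 1398 bases for the core and 486 bases for the others.

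Within the core, Ndufs3, a subunit of the arm that reaches into the matrix, was at 222.2 and 249.3, a 1.12-fold higher level (1.09 to 1.15). Ndufs8, which holds iron-sulfur clusters near the ubiquinone site, was at 273.6 and 225.7 and so at 0.824 of the wild-type level (0.802 to 0.847). The core subunits of 1 arm thus lay on both sides of 0. Ndufv1, the NADH-binding subunit, was at 189.9 and 200.4, and its partner Ndufv2 at 267.9 and 255.7. Ndufs1, at 45.23 and 48.17, had the lowest level of the core, and Ndufs7, at 310 and 309.1, had nearly equal values.

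Among the accessory subunits, Ndufb8 had the highest ratio of complex I, at 656.4 and 800.5 (1.22-fold higher, 1.19 to 1.24). Ndufa10, a nucleoside kinase relative, followed at 229.5 and 276.4 (1.2-fold, 1.18 to 1.23). The lowest was Ndufab1, with 3606 and 2357 fragments (1.42-fold lower, 1.35 to 1.5). Ndufab1 also serves fatty acid synthesis and iron-sulfur cluster assembly in mitochondria, so its transcript is not a readout of complex I alone. Ndufb4, a membrane arm subunit, was at 521.3 and 419.1 (1.24-fold lower, 1.21 to 1.28), and 37.9% of its words occur in pseudogenes.

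Ndufv3, a small subunit at the NADH end, had the highest value of complex I and was lower past 25%, at 1551 and 1234, but neither value was made from its fragments. The authors deposited an original estimate, made from whole fragments, and a derived one, and the larger is final. The 6433 and 5536 fragments of Ndufv3 alone give 372.2 and 344.1 on the scale of the deposited values, a 1.08-fold lower level (1.04 to 1.12). Without Ndufv3 the sums of complex I were 10189 and 10028, a ratio of 0.984, against 0.959 with it. Among values made from fragments Ndufb9, at 1047 and 986.5, was the highest of complex I.

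Complex III had 8 members, 5 above 0 and 3 below, a median log2 ratio of 0.08 (range -0.30 to 0.20) and none past 25%. Uqcrc1 and Uqcrc2, the large core proteins on the matrix side, were at 246.8 and 283.4 (1.15-fold higher, 1.13 to 1.17) and at 165 and 179.4. Uqcrfs1, the Rieske iron-sulfur protein, was at 159.8 and 166.3. These 3 genes have deposited lengths above 1000 bases, and all were above 0. The small subunits were more mixed. Uqcr10 was at 1117 and 909.3 (0.814 of the wild-type level, 0.797 to 0.831), Uqcrq, which touches cytochrome b, at 773.4 and 681.9, and Uqcr11 at 1183 and 1153. Uqcrh, the hinge protein next to cytochrome c1, was at 613 and 674.5, and Uqcrb had 409 fragments in each library. Summed values of the complex were 4278 and 4069. Its share of fragments was 0.247% in each library, since short genes weigh less in fragments than in length-scaled values.

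Complex IV had 16 members, of which 14 were measured, 5 above 0 and 9 below, with a median log2 ratio of -0.15 (range -0.65 to 0.09). Past 25%, none was higher and 3 were lower, against 8.52% and 13.3% of all measured genes. Lower past 25% were 27.9% of measured genes with a deposited length under 500 bases and 18.7% from 500 to 1000 bases. The median of -0.15 rests on tissue isoforms of low level. The 11 ubiquitous subunits had a median of -0.05, 5 above and 6 below, and sums of 11858 and 11428. Cox6a1, the most abundant member of all, was at 2000 and 1720 (1.16-fold lower, 1.15 to 1.18). Cox6c, an accessory subunit, was at 803.8 and 604.5 (1.33-fold lower, 1.3 to 1.36), and 26.3% of its words recur in the pseudogene Cox6c2. Without these 2 genes the complex summed to 9078 and 9119. Cox7b was at 378 and 315.8, Cox5a, which binds a thyroid hormone metabolite, at 97.78 and 85.66, and Cox7c at 1790 and 1655. On the other side of 0, Cox8a was at 1579 and 1680, Cox5b, a zinc-binding subunit, at 998.5 and 1056, and Cox4i1, which takes part in regulation by ATP, at 1525 and 1585. Ndufa4, named for complex I but a subunit of complex IV, was at 826.8 and 861.7, and Cox6b1 was at 1198 and 1223. The ubiquitous subunits thus had no common direction, and Cox6c alone of them passed the threshold.

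Isoforms known from single tissues were rare beside their ubiquitous counterparts in both libraries. Cox4i2, known from lung, was at 7.349 and 5.863, or 0.48% and 0.369% of the summed value of both Cox4 genes. Cox6b2, known from testis, was at 15.43 and 9.447, with 251 and 143 fragments (1.63-fold lower, 1.33 to 2.02), or 1.27% and 0.767% of its pair. Cox6a2, the heart and skeletal muscle form, had 32 and 16 fragments (1.86-fold lower, 0.992 to 3.63), an interval that includes no difference. All 3 had the lower value in ILN/ILN, and they summed to 23.87 in wild type against 15.9. Skeletal muscle markers beside Cox6a2 were scarce: 3 of 8 were measured, the 8 summed to 48.91 and 60.61, and Myh4 was at 0 in ILN/ILN. Myl1, at 37.67 and 51.38, carried that sum, and the other 7 were all lower in ILN/ILN, with sums of 11.24 and 9.227. The part of muscle in the value of Cox6a2 was not tested. Cox7b2 and Cox8c, also known from testis, had 0 fragments in both libraries, which at 3 fragments allows values of up to 0.124 and 0.133 for Cox7b2 and of up to 0.154 and 0.165 for Cox8c.

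Complex V had 15 members, 9 above 0 and 6 below, with a median log2 ratio of 0.02 (range -0.31 to 0.48). Past 25% the complex had 1 gene higher and none lower, against 8.52% and 13.3% of all measured genes. Its summed value was 7679 in wild type and 8386 in ILN/ILN, and its share of fragments 0.737% (0.735 to 0.739) and 0.828% (0.825 to 0.831). This sum was set by few genes. Atp5b, the catalytic beta subunit and the most abundant gene of the complex, was at 1348 and 1672, with 118106 and 136336 fragments (1.24-fold higher, with wild type at 0.807 of ILN/ILN, 0.8 to 0.813). Its partner Atp5a1 was at 581.1 and 637.4. Without Atp5b the complex summed to 6331 and 6714, and without Atp5b and Atp5l to 5617 and 5718.

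Atp5l, subunit g of the membrane part, had the highest ratio among subunits of all complexes. It was at 714 and 995.7, with 15772 and 20472 fragments (1.39-fold higher, 1.37 to 1.42). Of its words 85.3% occur in other annotated genes and 69.4% in pseudogenes, so reads from those copies could enter its value. Atp5o, which ties the head to the stator, was at 370.2 and 446.4, and 59.8% of its words recur. In contrast Atp5j, coupling factor 6, was at 24.96 and 19.98 (0.8 of the wild-type level, 0.696 to 0.92), and Atp5j2, subunit f, was at 890.4 and 750.4. The 7 genes of stator and membrane part were therefore 5 above 0 and 2 below. In the stalk of the head, Atp5c1, the rotating gamma subunit, was at 376.4 and 351.8, Atp5d at 404.1 and 389.8 and Atp5e at 489.7 and 556.7.

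The proton-carrying ring is built from 1 protein that 3 genes encode, differing in the import signal that is cut off. Atp5g2 was the main source, with 58.9% of the summed value in wild type and 55.2% in ILN/ILN, although 87.6% of its words also lie in a pseudogene. Atp5g3 made up 25.5% and 30.1%, at 239.1 and 290.5 (1.21-fold higher, with wild type at 0.823 of ILN/ILN, 0.797 to 0.85), and Atp5g1 15.6% and 14.7%. Their sum was 938.4 and 964, so the genes differed more in their shares than in their total.

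**Figure D2:**
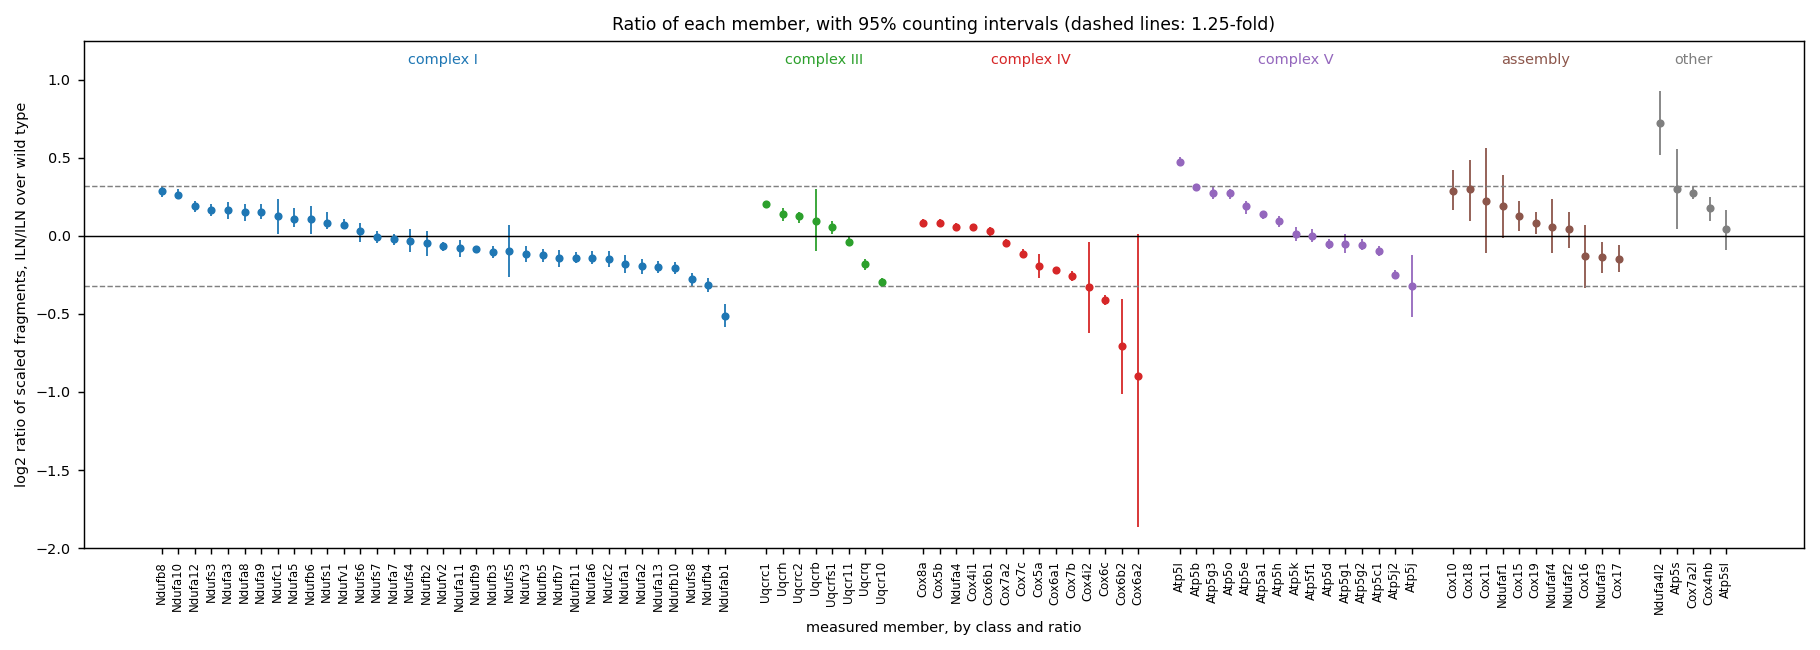
Log2 ratio of scaled fragments, ILN/ILN over wild type, for each measured member by class, with the same gene left out, and 95% intervals for counting error alone and dashed lines where either library exceeds the other by 25%. Atp5l, Ndufa4l2, Cox6b2, Cox6c, Ndufab1 and Cox6a2, with its wide interval from 32 and 16 fragments, lie outside the lines, Cox4i2 and Atp5j lie at the lower line, and for Ndufv3, Cox7a2l and Cox18 the ratio of fragments differs from that of the deposited value.

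Assembly factors were low and close to 0. The 11 genes had a median log2 ratio of 0.05 (range -0.14 to 0.26), 7 above and 4 below, and none passed 25%. Cox17, a copper carrier, had the highest level, at 132.5 and 119.8, followed by Cox19 at 104.7 and 111.2. Ndufaf2, a chaperone of complex I, was at 43.41 and 44.55. The lowest level was that of Cox11, at 1.494 and 1.751. By deposited values Cox10 had the highest ratio of the group (log2 ratio 0.26, and 1.22-fold higher in fragments, 1.12 to 1.34). Cox18, which inserts an oxidase subunit into the membrane, was at 10.03 and 9.216 by the deposited values, while its 408 and 466 fragments give a 1.23-fold higher level (1.07 to 1.4), so its direction depends on the estimate. Of the words of Cox16 and Cox11, 88.7% and 54.3% also occur in other annotated genes, but 0% and 3.62% in pseudogenes.

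The 5 remaining genes were all above 0, with a median of 0.17. Ndufa4l2, a relative of Ndufa4 known to be induced by hypoxia, was at 7.362 and 12.13, with 326 and 500 fragments (1.65-fold higher, 1.43 to 1.9). It made up 0.883% of the summed value of this pair in wild type and 1.39% in ILN/ILN. Cox7a2l was at 309.8 and 314.2 by the deposited values, which use the derived estimate in wild type alone. From fragments its wild-type value is 260.1, and the ILN/ILN level is then 1.21-fold higher (1.18 to 1.24). Its homologue Cox7a2, a subunit of complex IV, was at 661.2 and 640.7. Atp5s and Atp5sl, at 3.489 and 4.297 and at 9.288 and 9.55, and Cox4nb, a subunit of a complex of the endoplasmic reticulum, at 11.86 and 13.42, completed the set.

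By deposited length the members are short, and the ratio ran with that length among all measured genes. Deposited length is not the length of a transcript. For Uqcrq it was 437 bases beside an annotated transcript of 1521, and for Ndufa11 2587 beside 545. Deposited length had a median of 622 bases among measured members and 2403 bases among all measured genes. Under 500 bases the median log2 ratio was -0.11 for 401 measured genes and -0.07 for 34 members. From 500 to 1000 bases it was -0.06 for 1098 genes and -0.05 for 29 members. From 1000 to 2000 bases it was -0.02 for 3147 genes and 0.10 for 18 members, and from 2000 bases on 0.04 for 6888 genes and 0.10 for 8 members. By these medians, members under 1000 bases lay slightly below 0 and longer ones above. Genes in general were above 0 only from 2000 bases on. Of the members, 41.2% were above 0 under 500 bases and 87.5% from 2000 bases on, against 36.2% and 57.8% of measured genes. Under 500 bases 8.82% of members and 27.9% of measured genes were lower past 25%, and 2.94% and 9.23% were higher. Among measured genes of that band that reached 50 in wild type or ILN/ILN, closer to the members in level, 24.2% were lower and 4.85% higher. Across members Spearman's rho between log2 ratio and length was 0.32 (n = 89), against 0.18 across all 11556 measured genes, both given as descriptions of these libraries. Within complexes it was 0.16 for complex I, 0.69 for the 8 genes of complex III, -0.02 for complex IV and 0.16 for complex V. A cause of the relation with length was not tested.

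**Figure D3:**
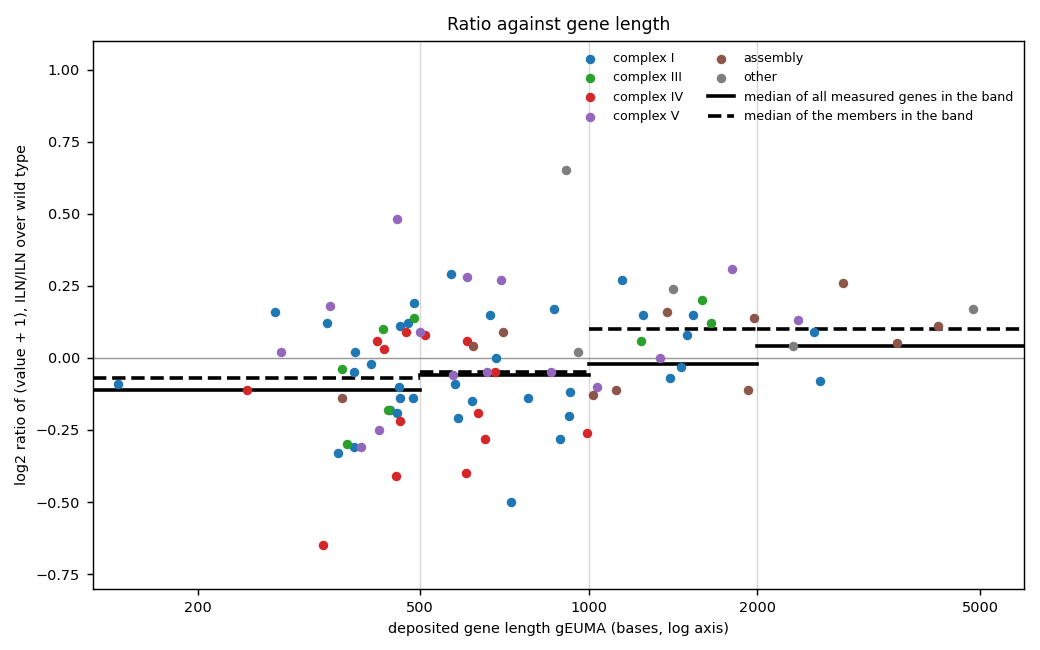
Log2 ratio of (value + 1) against deposited gene length (log axis) for each measured member, coloured by class, with the median of all measured genes (solid) and of members (dashed) in each length band. The solid line goes from -0.11 under 500 bases to 0.04 from 2000 bases on, and the members' line from -0.07 to 0.10.

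With the median of its length band subtracted from each gene, the order of the complexes by median log2 ratio was 0.11 for complex III, 0.09 for complex V, 0.01 for complex I and -0.05 for complex IV. Against a background of 7.74% of measured genes, 6 members were then higher past 25%. These were Ndufa4l2, Atp5l, Ndufb8, Atp5g3, Atp5o and Atp5b, of which 4 belong to complex V. Against 13.4% of measured genes, 3 were lower: Cox6b2, Ndufab1 and Cox6a2. Cox6c and Ndufv3 no longer passed. This step was added after the values had been seen.

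Other genes of the pathway, named without the symbol stems of the members, had a longer median deposited length, 1783 bases. Of 42 listed, 40 were in the table and measured, 31 above 0 and 9 below, with a median log2 ratio of 0.16. Past 25%, 2 were higher and 1 was lower. Of all measured genes 52.3% were above 0, and past 25% 8.52% were higher and 13.3% lower. Above 0 were 47.2% of measured genes with a deposited length of 1000 to 2000 bases and 57.8% from 2000 bases on. Complex II, which links the citric acid cycle to the chain, had 3 of 4 above 0. Its flavin subunit Sdha was at 357.3 and 393.4, its iron-sulfur subunit Sdhb at 595.3 and 576.8, and the membrane anchors Sdhc and Sdhd at 272.2 and 325.1 and at 126.9 and 149.3. Of 10 genes for cytochromes and coenzyme Q synthesis 8 were above 0. For 1 of these, Pdss2 at 4.024 and 4.082, the derived estimate enters, and 244 and 207 fragments give a ratio of 0.911 (0.753 to 1.1). Cyc1, the cytochrome c1 subunit of complex III, was at 356.1 and 395.2, and Cycs, cytochrome c, at 51.6 and 66.08 (1.28-fold higher, 1.24 to 1.32).

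Of 5 partners of ATP synthase 4 were above 0. The exception was Atpif1, an inhibitor of ATP hydrolysis, at 132.8 and 114.8. Of 8 assembly genes of complexes I and III 7 were above 0, and all 5 oxidase assembly genes were. Ttc19 was at 7.367 and 4.451, but the derived estimate enters these values, and 215 and 198 fragments give a ratio of 0.989 (0.811 to 1.21). The 8 regulators were 4 above and 4 below. Nrf1 was at 8.651 and 8.273, Gabpa at 4.562 and 5.338 and Esrra at 19.32 and 17.79. Ppargc1a, a coactivator of these factors, was at 0.509 and 2.122, where again the derived estimate enters. The fragments, 156 and 243, give a ratio of 1.67 (1.36 to 2.06). The genes left out of the members by name, Cox7a1 and Cox8b, known from heart, muscle and brown fat, were at 172.1 and 185 and at 1449 and 1451.

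**Figure D4:**
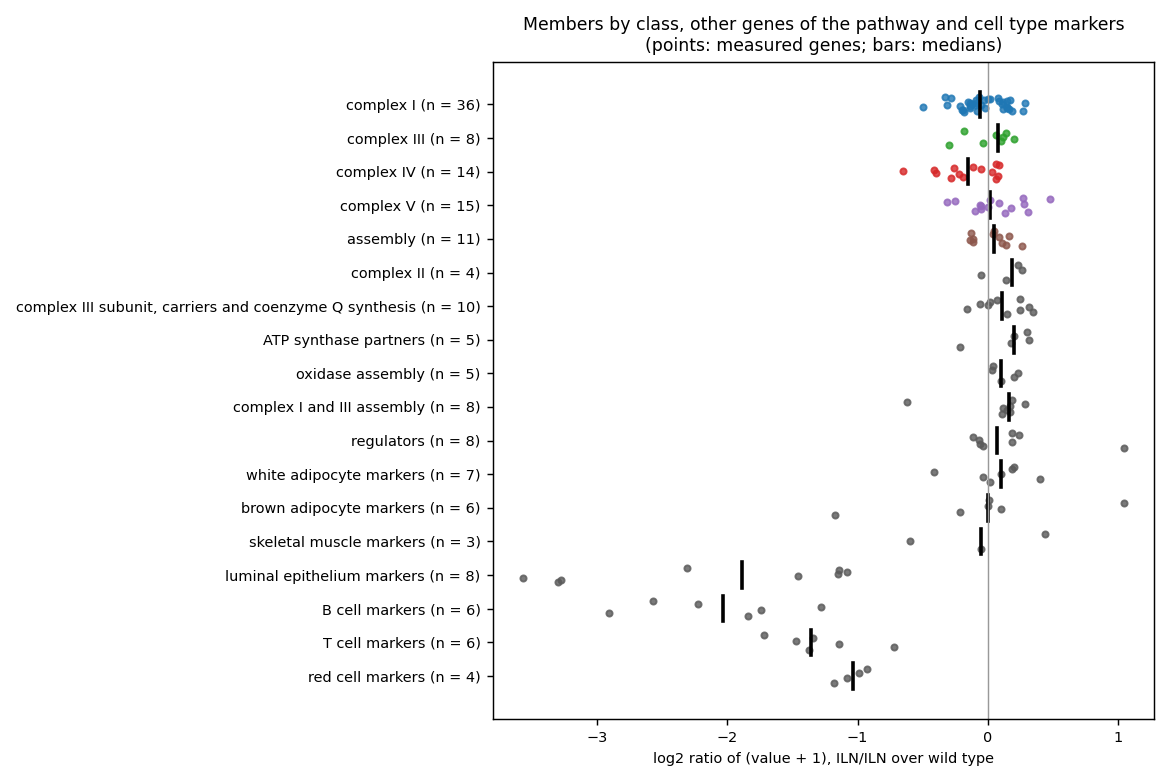
Log2 ratio of (value + 1), ILN/ILN over wild type, for each measured gene by class of member, by list of other pathway genes and by list of cell type markers, with bars at medians. Members and other pathway genes lie near 0, between -0.65 and 1.05, while the luminal epithelium, B cell, T cell and red cell markers all lie below 0, down to -3.57.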

How the data were processed

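Polyadenylated mammary gland RNA was sequenced on an Illumina GAIIx, with fragments of about 200 bp and 2 lanes per sample, per the labels' protocols. Named in the submitters' processing notes, with no role, are TopHat 1.4.1, Bowtie 0.12.3, bedtools and build mm9. No source used here states which program and annotation gave the tables or whether strand was used, so overlapping and antisense genes are uncertain.

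Per the file headers, the authors deposited an FPKM-like value per gene, its log2(value + 1), the signal per kilobase behind it as an original, a derived and a final estimate, and the gene length. The value is the final signal divided by 1 constant per library. The original estimate times the length was whole within 0.01 in 100% of genes with a value, and is called fragments here. Totals were 46133338 and 42953129 fragments. The deposited log2 column matched a value computed from the FPKM-like one to within 0.0012.

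Computed here (Python 3.11.15, numpy 2.4.6, pandas 2.3.3, scipy 1.17.1, matplotlib 3.10.9) were log2 ratios with a pseudocount of 1 for genes at 1 or more in either library, and exact conditional (Clopper-Pearson) 95% intervals for folds of fragments scaled by the totals. Shares of a library carry Wilson intervals. Fragments carry no molecular identifiers and may repeat a molecule, so intervals and the limit of 3 fragments for a count of 0 cover counting error only. The steps were tested on simulated data. No test between genotypes was possible with 1 library each. Motif windows and microRNAs come from RefSeq (GRCm38.p6), 3′ untranslated regions and shared 36-base words from GENCODE vM21 on GRCm38. No coordinate of mm9 is given.

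Members, lists and the 25% threshold were chosen with earlier results of these data known. The rule for named genes took per complex the highest level, the 2 highest and 2 lowest ratios, every member past 25%, isoform groups, catalytic core genes, members not valued from fragments and those under the minimum. Other genes are named for their role in the complex, a choice made with values in view. The values of 1 catalytic core gene that the rule takes are not reported here, although it enters all counts, medians and sums. Alternatives varied pseudocount, minimum, scaling, estimate, fold threshold, length and membership.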

Additional observations from a re-analysis of the deposited data

How the results depend on the processing

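No paired analysis was possible because each genotype has 1 library and the labels give no replicate numbers, and for the same reason no library could be left out. Under pseudocounts of 0.1 and 5, a minimum of 5 and 3 other scalings, the medians of all members and of each complex moved by less than the median counting interval, and the counts past 25% stayed within 1.5 times. Scaling shifted all ratios by at most 0.019. No member past 25% changed sign. With no minimum the complex IV median was -0.08, since Cox7b2 and Cox8c at 0 then enter. With members of 500 bases or more alone, the medians were 0.04 over all, -0.05 for complex I, 0.12 for complex III, -0.19 for complex IV and 0.05 for complex V. At 1.1-fold 21 members were higher and 24 lower, at 1.5-fold 1 and 1, and at 2-fold 0 and 0. Among structural subunits alone 1 was higher. From fragments alone the ratio moved for 3 of 89 genes (Ndufv3, Cox7a2l and Cox18), and Cox18 changed sign, from -0.11 to 0.26.

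The next alternatives were added after seeing the data. Subtracting the median of each length band gave an overall median of 0.06, with 6 members higher and 3 lower, and medians of 0.01 for complex I, -0.05 for complex IV and 0.09 for complex V. The ratio of 53 of 89 genes moved beyond its counting interval. Without members that share at least 20% of their words with other genes, 1 was higher, and the medians were 0.01 for complex III and -0.05 for complex IV. Depth does not limit most members, but among subunits Cox6a2, Cox6b2, Cox4i2, Uqcrb and Atp5j rest on under 500 fragments per library. The files do not hold the spread between animals.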
